A study of Mus musculus with 15 samples.

Results

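The comparison set the brain of APP/PS1 mice at 6 months of age against that of APP/PS1 mice at 3 months. Its members were the arrays whose source labels give one of these ages, 3 arrays at each, of 14 arrays with a scanner file in the series. At each age the labels name 1 male and 2 females on a C57BL background, while the series' design text speaks of male mice. The labels give every sample the same replicate number, so replicates are numbered here in the order of the series. Mice were killed by cervical dislocation and the brains were flash frozen, and total RNA was labelled with Cy3 for 1-colour Agilent arrays built mainly for long noncoding RNA. Replicates 2 and 3 of each age were nearly the same array, since their residuals over 20 negative control probes correlated at 0.800 to 0.825 in the 3 such pairs of the series, against at most 0.240 in the 88 other pairs of arrays. Each pair was averaged, which left 2 samples at 3 months and 2 at 6 months of 11 in the series: the first sample at each age is the male-labelled array and the second is the mean of the female-labelled pair. All animals in the comparison carried the transgenes, so it holds no wild-type animal and an effect of age alone is not separated from one of the transgenes. Wild-type (WT) arrays of the series are set beside it for some features, but their labels give no age. The promoter that drives the transgenes and the APP/PS1 line are not given in the sources used here. Nothing in the labels says whether a sample is 1 animal or a pool.

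APP/PS1 mice carry human amyloid precursor protein together with a mutant presenilin 1, a subunit of the gamma-secretase that releases amyloid beta. In some widely used lines amyloid plaques first become visible in the months that this comparison spans, and microglia and astrocytes react around them. Long intergenic noncoding RNAs, or lincRNAs, are transcripts with no long reading frame that lie between protein-coding genes, and many are more restricted to one tissue than messenger RNAs are. Ultraconserved elements are stretches of genome that are identical in human, rat and mouse, and some of them are transcribed.

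Levels are given as log2 intensity minus the 75th percentile of the array, so a level of 0 is that of a probe at the 75th percentile and a difference of 1 is a doubling. The 75th percentile lay at 384 to 407 intensity units at 3 months and at 446 to 566 at 6 months. The arrays of the 2 ages also lay at different positions along the scanner's X axis, and the effects of position and of age cannot be told apart. WT and 1-month arrays lay at the same 2 kinds of position as 3-month and 6-month arrays, and share no sample with them. Of the features called below, 40.6% had the same sign in 1 month minus WT, against 53.2% of all features. Those 2 groups also differ in genotype, and the age of WT is not given. So these shares cannot show an effect of position or its absence. The labelled tissue could not be checked, since none of 26 marker genes for neurons, glia, vessels, choroid plexus, blood or pituitary had a probe that could be named. In brain tissue, fewer cells of a type and less RNA per cell cannot be told apart. Only 115 probes carried a RefSeq accession that gave a gene symbol, and most features are known by the code of the array's maker alone.

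Between 3 and 6 months 6360 of 48294 tested features (13.2%) passed the limma test at an adjusted p under 0.05. They split evenly, with 3179 higher (6.58%) and 3181 lower (6.59%) at 6 months. The samples of the 2 ages did not overlap in any called feature, and they did not overlap in 51.7% of all features. Most called changes were modest, with a median log2 difference of 0.63 among the higher and -0.65 among the lower features. Changes past 1 on the log2 scale numbered 707 up and 795 down, and changes past 3, or 8-fold, numbered 29 up and 62 down. The even split depends on the scaling: with the reference gene probes set level between arrays, 10912 were higher and 1439 lower, or 88.3% higher, and the median of all features moved from 0.05 to 0.34. With the median of each array subtracted the split was 1520 higher and 2281 lower, and with normexp background correction 1388 and 1980, with 284 of the 6360 calls changing sign. The normexp setting added an offset of 50 intensity units to every signal. Such an offset draws dim levels together, so a difference that reaches a dim level is made smaller by the setting itself. Dim and bright features also differed. With the features split into 3 equal parts by level, the dimmest part had 708 higher and 389 lower, and the brightest had 1317 higher and 1699 lower.

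**Figure D1:**
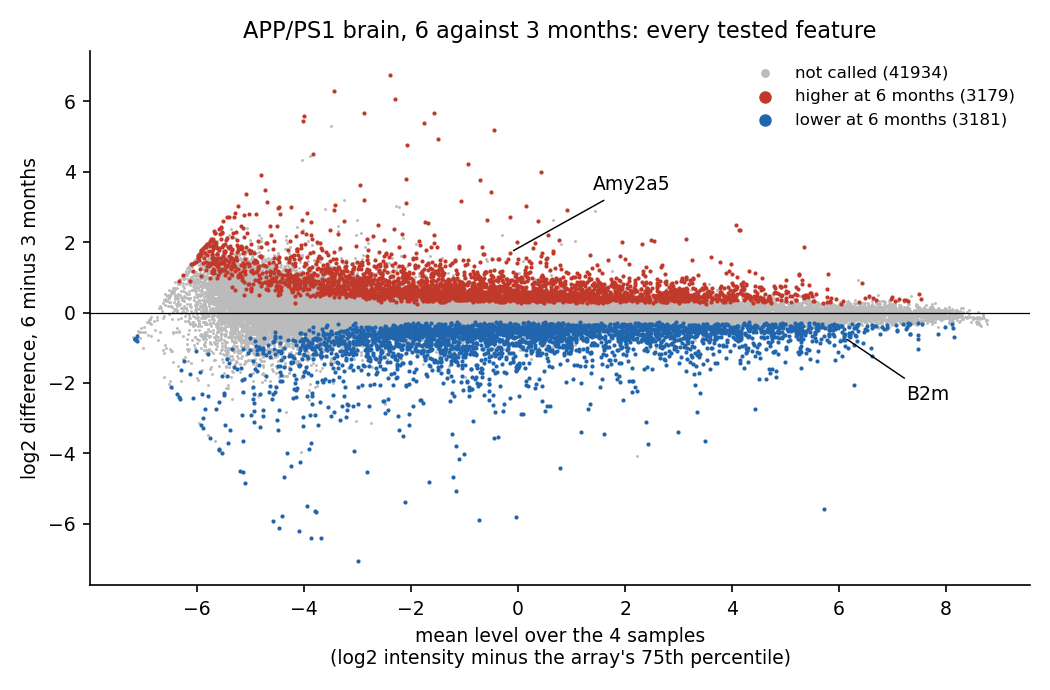
Each point is 1 of the 48294 tested features, with its mean level over the 4 samples on the X axis (log2 intensity minus the array's 75th percentile) and its log2 difference, 6 minus 3 months, on the Y axis. Red points passed the limma test as higher at 6 months (3179) and blue points as lower (3181); the rises and falls past 3 (29 and 62) lie mostly among features of low or middle level, and the arrows mark Amy2a5 at 1.70 and B2m at -0.70.

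With 2 samples a side the test leans on the spread shared by all 11 samples. With the 4 samples of the 2 ages alone 87 features were called, and no feature with a gene symbol was among them. Leaving out 1 sample gave 3326 calls without replicate 1 at 3 months, 4356 without the averaged pair at 6 months, and between 4988 and 5810 without any other single sample. By the labels the 2 samples of each age differ in sex, though the design text speaks of male mice, and nothing says how many animals each holds. So p-values measure the spread between these samples, which may be technical and may hold a difference between the sexes.

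Among features that could be named, the alpha-amylase gene Amy2a5 changed most. Amy2a5 codes for a starch-digesting enzyme made mainly by the pancreas. It lay at -1.01 and -0.99 at 3 months and at 0.69 and 0.70 at 6 months. Both samples of 6 months were thus far above both of 3 months, and the samples of 1 age lay close together. The log2 difference was 1.70 (SE 0.11, n = 2 against 2), or 3.25-fold, with a limma adjusted p of 0.000112. The level at 6 months was also above those of the other groups, which had means of -0.34 in WT, -0.99 at 1 month and -0.05 at 9 months. The call was lost in 1 of 26 alternatives, the 4 samples alone (limma adjusted p = 0.0531). The mouse genome holds near-identical amylase copies next to each other, and the probe may read more than one of them. The 250 bases before the start of Amy2a5, from RefSeq on GRCm38.p6 at chr3:113258700-113258949 on the minus strand, are printed for the most changed named gene, with a TATA box (TATAAA) in capitals:
Amy2a5: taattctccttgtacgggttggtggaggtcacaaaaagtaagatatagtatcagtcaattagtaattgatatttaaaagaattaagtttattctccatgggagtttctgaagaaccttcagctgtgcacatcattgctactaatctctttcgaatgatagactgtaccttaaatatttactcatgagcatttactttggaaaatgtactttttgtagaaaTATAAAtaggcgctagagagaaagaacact
Of 32851 promoters of the same length 12.4% hold TATAAA on either strand. In windows of 300 bases Amy2a5 shares an unbroken run of 162 identical bases with each of Amy2a2, Amy2a3 and Amy2a4, and one of 154 with Amy2a1.

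B2m fell. It codes for the light chain that every MHC class I molecule needs to present peptides to CD8 T cells, and its probe is 1 of the array's 15 reference gene probes. Its level was 6.46 and 6.42 at 3 months and 5.81 and 5.67 at 6 months, with no overlap. It fell by 0.70 (SE 0.07), or 1.63-fold, with a limma adjusted p of 0.000985. Over the APP/PS1 groups its means did not follow age in 1 direction: 5.76 at 1 month, 6.44 at 3 months, 5.74 at 6 months and 6.98 at 9 months. In WT, whose age is not given, the mean was 6.44. The 2 groups with the lower B2m level, 1 and 6 months, were also the 2 groups with every array at the higher X positions. The 9-month arrays lay at X positions of 700, 5990 and 11281, with B2m at 7.01, 6.99 and 6.95. Replicate 1 at 6 months lay at 11279, with B2m at 5.81. The part of position in the B2m difference was not tested. With the reference gene probes set level B2m still fell, by 0.41. Its call was lost with the 4 samples alone (limma adjusted p = 0.117). The 250 bases before its start, at chr2:122147437-122147686 on the plus strand, are shown. B2m is the one named gene that codes for a part of MHC class I molecules. Capitals mark, from the left, TATAAA read on the other strand, an interferon response motif (GAAA, 2 bases of any kind and GAAA) and a CCAAT box read on the other strand:
B2m: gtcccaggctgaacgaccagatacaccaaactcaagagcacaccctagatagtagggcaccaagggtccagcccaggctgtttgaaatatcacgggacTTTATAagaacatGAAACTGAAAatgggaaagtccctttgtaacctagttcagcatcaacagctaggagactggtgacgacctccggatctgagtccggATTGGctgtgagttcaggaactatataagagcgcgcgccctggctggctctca
The interferon response motif is held by 2.98% of the 32851 promoters on either strand, and CCAAT by 33.9%. A match is a description of letters and not evidence of binding.

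Other named genes changed by less. H2ac19, a histone H2A gene, lay at 4.97 and 4.84 at 3 months and at 4.32 and 4.52 at 6 months. It fell by 0.49 (SE 0.11, limma adjusted p = 0.0234). Its neighbour H2ac18 codes for the same kind of histone and lay at 5.05 and 4.96 at 3 months and at 5.00 and 4.76 at 6 months, so its samples overlapped. H2ac18 had a log2 difference of -0.12 (SE 0.11, limma adjusted p = 0.550), and the difference between the 2 genes was not tested. The call of H2ac19 was lost without replicate 1 at 3 months (adjusted p = 0.13), without replicate 1 at 6 months (0.0891) and in 5 further alternatives. The 2 genes are near-identical copies whose probes may read each other's transcripts. Their promoters show how close they are: over 300 bases each they share an unbroken run of 219 identical bases, part of which can be seen below with GC boxes (GGGCGG) and CCAAT boxes in capitals on either strand. H2ac19 is at chr3:96240375-96240624 on the minus strand and H2ac18 at chr3:96245247-96245496 on the plus strand of GRCm38.p6:
H2ac19: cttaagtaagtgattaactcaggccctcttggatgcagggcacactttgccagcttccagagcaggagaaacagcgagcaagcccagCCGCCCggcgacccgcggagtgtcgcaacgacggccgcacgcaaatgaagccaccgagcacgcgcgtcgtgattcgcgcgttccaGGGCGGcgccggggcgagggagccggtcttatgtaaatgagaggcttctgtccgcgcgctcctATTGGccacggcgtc
H2ac18: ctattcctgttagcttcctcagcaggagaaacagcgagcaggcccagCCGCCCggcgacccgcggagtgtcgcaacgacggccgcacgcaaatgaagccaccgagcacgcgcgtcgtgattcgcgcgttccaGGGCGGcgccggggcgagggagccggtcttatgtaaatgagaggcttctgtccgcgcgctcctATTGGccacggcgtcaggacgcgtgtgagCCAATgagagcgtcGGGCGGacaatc
Of the same 32851 promoters 32.7% hold GGGCGG.

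Tsnax, which codes for the partner of translin in an RNA-binding complex, lay at 6.70 and 6.73 at 3 months and at 6.33 and 6.15 at 6 months. It fell by 0.47 (SE 0.09, limma adjusted p = 0.0128). G6pd2, a retrocopy of the gene for glucose-6-phosphate dehydrogenase whose probe may also read the parent gene, lay at 1.09 and 1.07 and then at 1.59 and 1.43. It rose by 0.43 (SE 0.08, limma adjusted p = 0.0101). In neither gene did the samples of the 2 ages overlap. Ccdc82 lay at 3.76 and 3.73 and then at 4.37 and 4.18, a rise of 0.53 (SE 0.13, limma adjusted p = 0.0346). Jrkl, its neighbour on the chromosome, lay at 1.83, 1.75, 1.90 and 1.74 in the same order and had a log2 difference of 0.03 (adjusted p = 0.906). Gk, glycerol kinase, which brings glycerol into energy and lipid metabolism, rose by 0.29 (SE 0.07, limma adjusted p = 0.0402), from -0.48 and -0.43 to -0.21 and -0.12. These calls depend on the scaling and on single samples. With array medians subtracted all 4 were lost (limma adjusted p 0.119 for G6pd2, 0.0613 for Tsnax, 0.154 for Ccdc82 and 0.188 for Gk). Tsnax was also lost with the reference gene probes set level, where it had a difference of -0.19 (adjusted p = 0.138), and Gk with normexp (0.165). The call of G6pd2 was lost without replicate 1 at 3 months (adjusted p = 0.0531), and that of Tsnax without replicate 1 at 3 months (0.0613), without the averaged pair at 3 months (0.0576) and without that at 6 months (0.0579). That of Ccdc82 was lost on removal of any of 7 single samples (adjusted p 0.0565 to 0.126), and that of Gk on removal of any single sample of the 11 (0.0523 to 0.177).

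**Figure D2:**
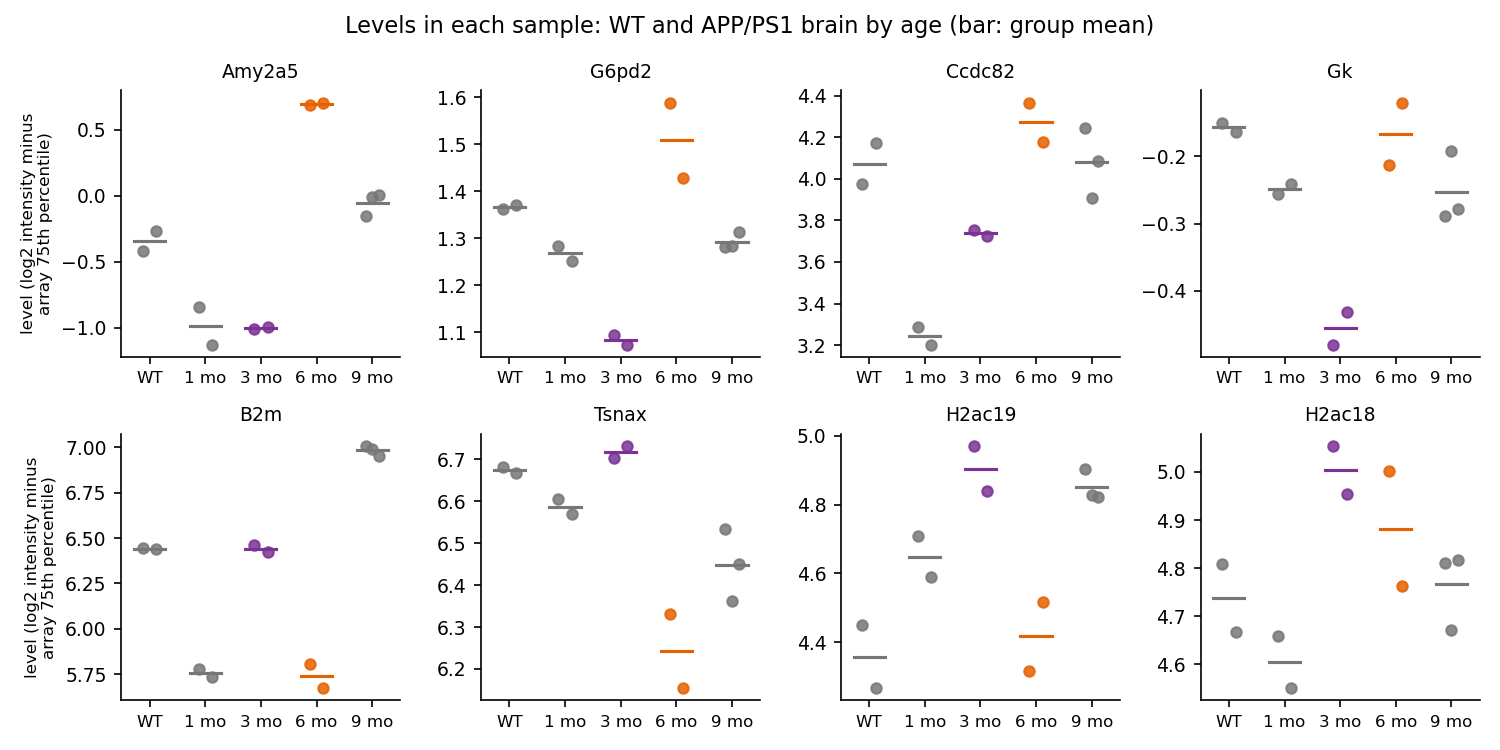
Each point is 1 sample of WT or of APP/PS1 brain at 1, 3, 6 or 9 months and each bar a group mean, with the level on the Y axis (log2 intensity minus the array's 75th percentile, each panel with its own range). Amy2a5, G6pd2, Ccdc82 and Gk lay higher at 6 months (orange) than at 3 months (purple), B2m, Tsnax and H2ac19 lay lower, and the H2ac18 samples of the 2 ages overlap.

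A further 2 named genes were called at levels near background. Ssty2, a Y-linked gene active in spermatids, was well above background on none of 3 arrays at 3 months and on 2 of 3 at 6 months. At 6 months it lay at -5.17 in the male-labelled sample and at -4.63 in the female-labelled one. The dimmest signal well above background on the male-labelled array was -5.12, so the 2 arrays were the female-labelled ones. Whether the probe reads Ssty2, and whether the sex labels hold, was not tested. The fitted log2 difference of Ssty2 (SE 0.31, limma adjusted p = 0.0409) was above 0 but turned to -0.098 with normexp. Gm20831 was well above background on none of 3 and on 3 of 3 arrays, and its fitted difference of 0.81 (SE 0.19, limma adjusted p = 0.031) turned to -0.17 with normexp. No fold change is given for either.

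The remaining named genes did not pass the test. Over all lists 43 symbols were tested, of which 3 were called higher and 3 lower, a share near the 13.2% over all features. Of the 5 chemokine and immune genes only B2m was called; Ccl28, a mucosal chemokine, had a log2 difference of -0.39 (SE 0.18), Ccl21b, a chemokine read by CCR7, one of -0.39 (SE 0.19) and its near-identical copy Ccl21c one of 0.04 (SE 0.15). In the RNA-binding list Tsnax was the 1 call of 3, and the paraspeckle gene Nono had a difference of -0.13. In the histone H2A list H2ac19 was the 1 call of 4, and in the signalling list Gk was the 1 call of 4. None of 2 cytoskeletal genes, 7 chaperone and reference genes, 3 membrane trafficking genes and 10 pheromone receptor genes was called, nor was Hmgcs1 (0.15, SE 0.09), which makes the precursor of cholesterol. Actb came nearest among them, with levels of 6.46 and 6.44 and then 6.24 and 5.95 and a difference of -0.35 (SE 0.11, limma adjusted p = 0.0748). The pheromone receptor genes spanned -1.40 to 0.84 with standard errors of 0.12 to 0.86, and all 10 lay below the 75th percentile of their arrays in every sample of the 2 ages. The list of 7 chaperone and reference genes is not the array's whole set of 15 reference gene probes. Of those 15, 3 were called (20%), with G6pd2 and Gk higher and B2m lower. The same 15 probes gave the scale wherever reference gene probes were set level.

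The share of features called ran from 1.25% to 13.8% over the kinds of feature with 100 or more probes. Coded probes, whose targets are not named in the files, made up 43081 of the tested features and had 2956 rises and 2970 falls, or 13.8%. Of 2590 probes for lincRNA exon regions 108 were higher and 138 lower, or 9.50%. Ultraconserved elements had 44 rises and 25 falls among 508 probes, or 13.6%. Of 810 probes named by a cDNA record 36 were higher and 28 lower, or 7.90%. Mouse lincRNA probes had 5 rises and no fall among 399, or 1.25%, and lincRNA probes derived from human had 13 rises and 3 falls among 645, or 2.48%. The medians of these 2 classes, 0.10 and 0.17, were at or above the median of 0.05 over all features. Both classes were dim, with median levels of -3.60 and -3.50 against -1.78 over all features, and calls were 6.81% of the dimmest and 18.7% of the brightest of the 3 parts by level; the part of brightness in these shares was not tested. The mouse lincRNA calls were 0 with normexp.

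**Figure D3:**
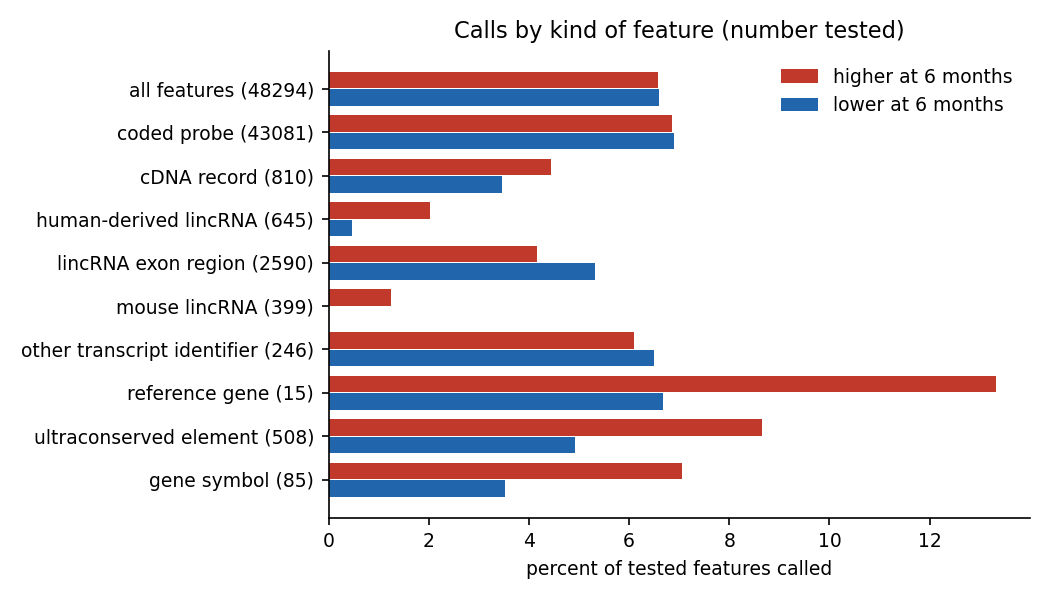
Bars give the percent of tested features called higher (red) or lower (blue) at 6 months for each kind of feature, with the number tested in brackets. Over all features the bars stand at 6.58% and 6.59%; they are shortest for mouse lincRNAs (1.25% in both directions together) and human-derived lincRNAs (2.48%), and the reference gene bars rest on 15 probes.

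The lincRNA exon regions are named by a number and a strand, and many carry 1 probe on each strand. Whether neighbouring numbers belong to 1 transcript is not given in the sources used here. Runs of neighbouring numbers that were called in 1 direction on 1 strand stood out, and they were picked out after the values were seen. There were 7 runs of 3 or more, 2 of rises on the plus strand and 5 of falls on the minus strand, with 33 probes in all. Neighbouring numbers on the minus strand were both called in the same direction in 31 of 973 pairs and in opposite directions in 4, against 14 and 5 of 874 pairs whose numbers differed by 10. On the plus strand the counts were 12 and 3 of 770 pairs for neighbours and 1 and 0 of 718 at a distance of 10. Across features, which are not independent and share the same 4 samples, the log2 differences of neighbours correlated at 0.11 on either strand.

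In the run from 11075 to 11079 probes of both strands rose. All 5 plus-strand probes were called, with log2 differences of 0.86, 0.45, 0.82, 0.91 and 0.73 in order, and so were 4 of the 5 minus-strand probes, with 0.50, 0.88, 0.85 and 0.71 for 11075, 11076, 11078 and 11079. The exception, 11077 on the minus strand, had a difference of 0.94 (SE 0.26, limma adjusted p = 0.0541) and was well above background on none of the arrays at 3 months, and its sign turned with normexp (-0.047). The plus-strand probe of region 11079 lay at 3.16 and 3.09 at 3 months and at 3.92 and 3.79 at 6 months. Region 11078 on the plus strand lay at 1.64 and 1.59 and then at 2.49 and 2.55 (SE 0.07, limma adjusted p = 0.000284). In both, the 2 ages were clearly apart and the samples of an age close together. The probes on either side, 11074 on the minus strand (0.23) and 11080 on the plus (0.18) and minus strand (0.28), were not called. At 9 months the plus-strand means of 11078 and 11079 were 2.16 and 3.75, and in WT they were 1.36 and 2.85.

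The 4 runs of falls with 4 or more probes were on the minus strand. All 7 minus-strand probes from 10483 to 10489 fell, by 0.32 to 0.63 on the log2 scale, while the 4 plus-strand probes tested there had differences of -0.01 to 0.62 and none was called. With the reference gene probes set level none of the 7 was called (differences of -0.34 to -0.036, limma adjusted p 0.066 to 0.764), and 4 of the 7 lost their call with array medians subtracted. All 7 from 11956 to 11962 fell too, by 0.48 to 1.38, against -0.11 to 0.33 and no call for the 5 plus-strand probes. The largest of these falls, 11956, was near background. It was well above background on only 2 of 3 arrays at each age, lay at -5.12 and -6.16 at 6 months, and lost its call in 9 of 25 alternatives. In that run 11961 lay at 2.29 and 2.24 at 3 months and at 1.42 and 1.24 at 6 months, a difference of -0.94 (SE 0.09, limma adjusted p = 0.000642). The probes 11492 to 11495 fell by 0.51 to 1.35, and 11495 lay at 5.40 and 5.22 and then at 4.72 and 4.88. The probes 11969 to 11972 fell by 0.48 to 0.69, but 3 of the 4 lost their call with the reference gene probes set level and all 4 with array medians subtracted. The largest falls of 2 runs, 11494 (-1.35) and 11956 (-1.38), had -0.68 and -0.64 and no call with normexp. The differences between strands were not tested. None of the called probes of these runs changed sign under any alternative run on it. None was called with the 4 samples alone, with limma adjusted p-values between 0.0867 and 0.294, and single probes lost their call in as few as 1 and as many as 19 of the 26 alternatives, 10485 most often.

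**Figure D4:**
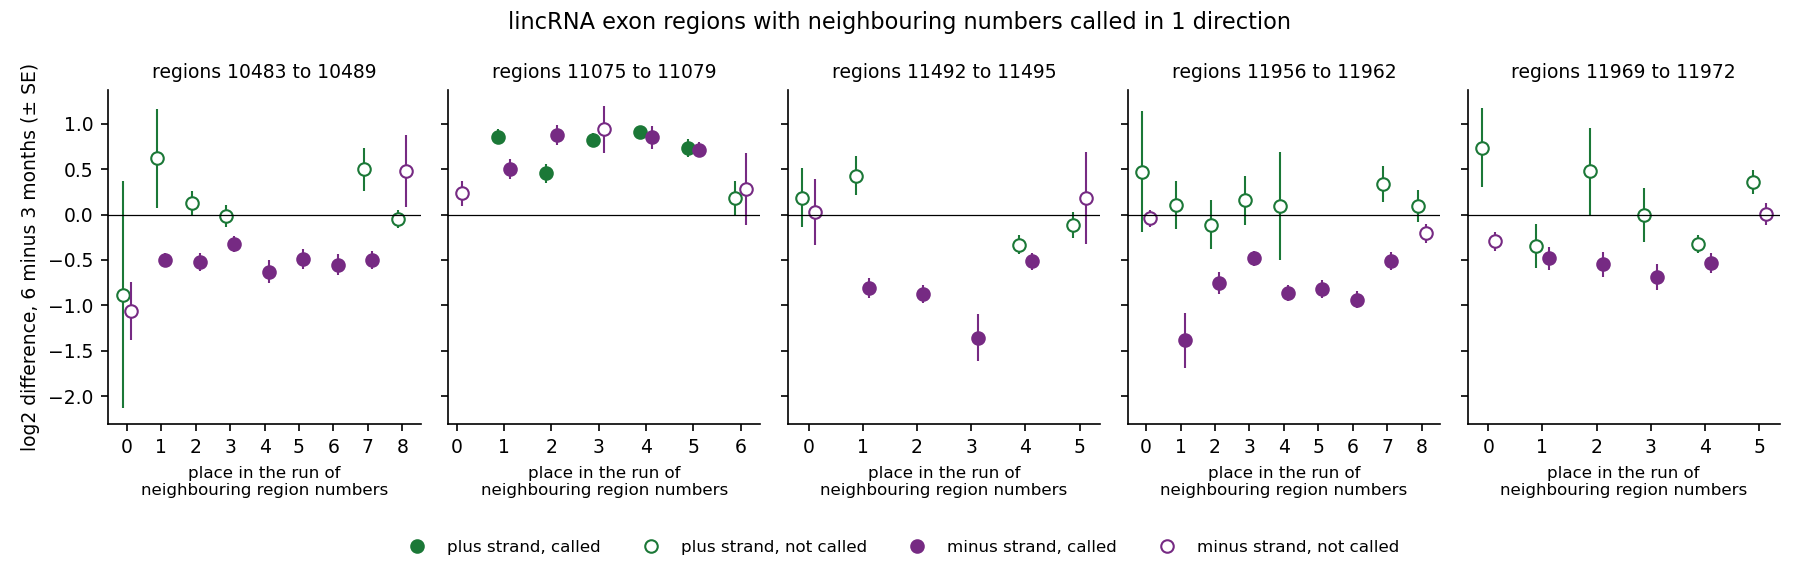
Each panel is a run of lincRNA exon regions with neighbouring numbers, ordered by number on the X axis with 1 region on each side, and the Y axis is the log2 difference, 6 minus 3 months, with its standard error. Filled points passed the limma test: in the run 11075 to 11079 both strands rose, and in the other runs the minus strand (violet) fell while no plus-strand probe (green) was called.

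Over all exon regions, most calls were on 1 strand alone. Of 989 regions tested on both strands, 167 were called on 1 strand, 11 on both in the same direction (4 of them in the run from 11075 to 11079) and 2 on both in opposite directions. Region 10093 fell on both, from 5.04 and 5.25 to 4.39 and 4.17 on the plus strand (difference -0.86) and by 0.53 on the minus strand. Region 10319 was one of the 2 that went opposite ways, with a difference of -0.55 on the minus strand and 0.51 on the plus strand. Calls were 11.9% of minus-strand probes (58 rises and 105 falls of 1366) and 6.78% of plus-strand probes (50 rises and 33 falls of 1224). The largest rises among exon regions with all 6 arrays well above background were 10212 and 10217, both on the minus strand. Region 10212 went from -1.13 and -1.12 to 0.47 and 0.30 (difference 1.51, SE 0.09), and its plus strand had a difference of 0.08. Region 10217 had a difference of 1.44, but 0.46 and no call with normexp (limma adjusted p = 0.213). The largest falls were 12015, from 1.32 and 1.35 to -2.20 and -2.28 (difference -3.58, SE 0.09, limma adjusted p = 1.54e-06), and 11015, with a difference of -2.51 (SE 0.10); with normexp they had -2.91 and -1.50.

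Among the ultraconserved elements uc.430 rose by 1.79 (SE 0.17) on the minus strand, from -2.73 and -2.50 to -0.71 and -0.94. Its plus strand was called too, but was well above background on none of the arrays at 3 months and was not called with normexp (0.12). The minus-strand difference was 1.06 with normexp. Element uc.477 rose on both strands, by 1.27 on the plus strand (0.80 and 0.68 to 1.82 and 2.20) and by 0.75 on the minus strand. Element uc.162 fell on the plus strand by 1.62 (SE 0.11), from -1.43 and -1.48 to -3.20 and -2.94, while its minus strand had a difference of 0.00 (4.47 and 4.22, then 4.22 and 4.47). Over the class 155 elements were tested on both strands, 36 were called on 1 and 3 on both, all 3 upward.

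The largest changes were among the coded probes, and those named here were well above background on all 6 arrays. Several of them lay apart from the other 4 groups at 6 months. Probe ASMM9PARTA002584 lay at 2.29 and 2.13 at 3 months and at -3.65 and -3.71 at 6 months, a difference of -5.88 (SE 0.09, limma adjusted p = 3.40e-07) or 59.1-fold lower, and one of -4.46 with normexp. Its means were 2.58 in WT, 1.76 at 1 month and 2.66 at 9 months, so the low level was seen at 6 months alone among the 5 groups. Probe ASMM9PARTA005519 was also low at 6 months alone, with 2.92 and 2.82 at 3 months, -3.06 and -2.82 at 6 months, and means of 2.52, 1.71 and 2.50 in WT and at 1 and 9 months. In the other direction ASMM9PARTA028274 rose from -4.14 and -3.77 to 1.00 and 0.94 (4.93, SE 0.20; 3.23 with normexp), with means of -0.52 in WT, -4.94 at 1 month and 0.08 at 9 months. Of the 62 features that fell by over 3 on the log2 scale, 54 had their lowest group mean at 6 months, and in 18 the WT, 1-month and 9-month means all lay within 1 of the 3-month mean. Of the 29 that rose by over 3, 24 had their highest mean at 6 months, and in 13 the other means lay within 1 of that at 3 months. These counts share the 6-month samples with the calls and are a description.

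**Figure D5:**
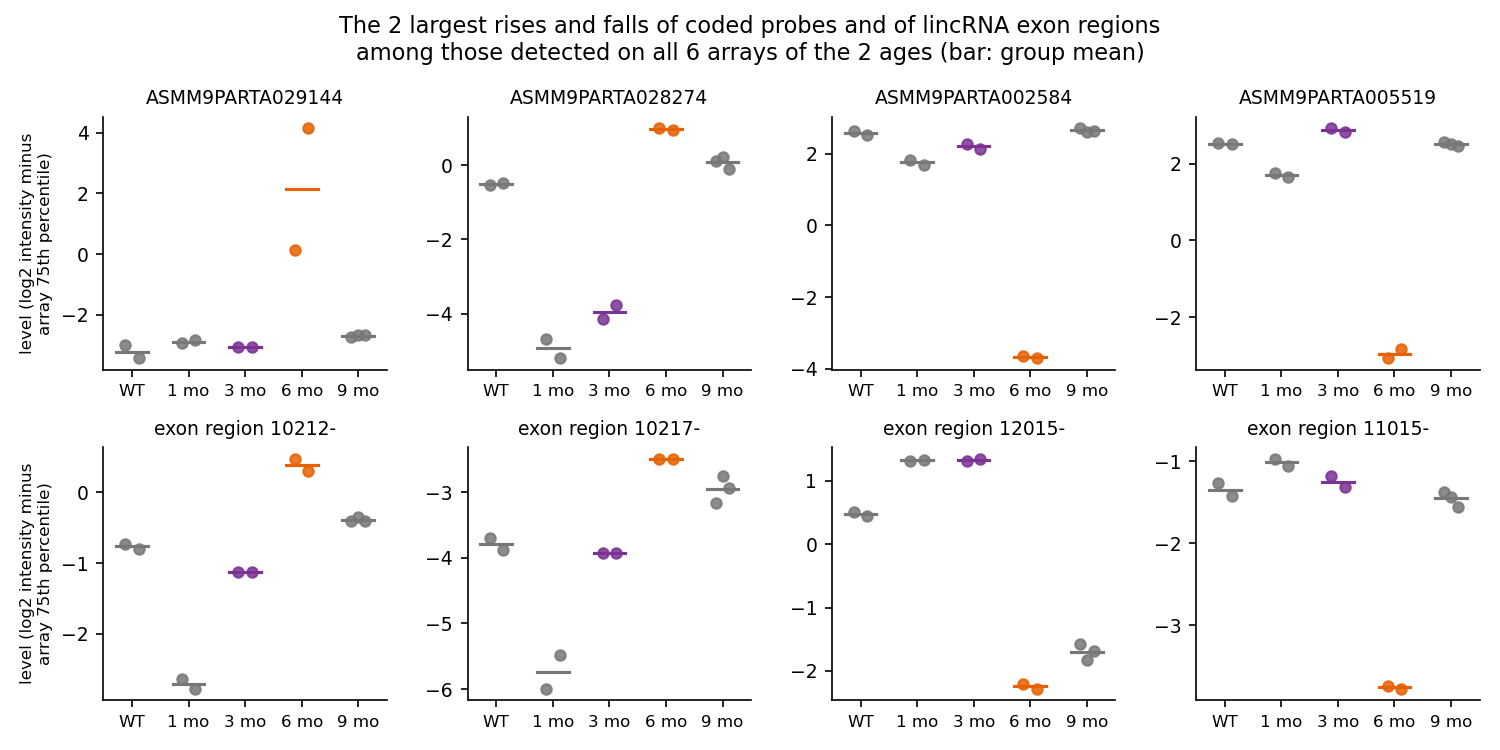
Points are samples and bars group means for the 2 largest rises and 2 largest falls among coded probes (top) and lincRNA exon regions (bottom) that were well above background on all 6 arrays of the 2 ages (the sign after the number is the strand), with the level on the Y axis (log2 intensity minus the array's 75th percentile). The 2 coded probes that fell and exon region 11015 are low at 6 months (orange) alone, exon region 12015 is low at 6 and 9 months, and the 2 samples of ASMM9PARTA029144 at 6 months are 0.13 and 4.15.

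Some features were detected at one age alone. At 6 months 1752 features were well above background on all 3 arrays and on none at 3 months, and 266 of them were called, 35 with a bound over 2-fold and 6 over 8-fold. In the reverse direction there were 49 such features, of which 45 were called, 44 with a bound over 2-fold and 14 over 8-fold. These sets were chosen by the detection pattern and can pass the filter of 3 arrays through the one age alone, which favours a call, so the counts are a description beside the 13.2% called over all features. The share of spots well above background was higher on every 6-month array (76.7% to 82.4%) than on any 3-month array (68.3% to 74.0%), and its part in these counts was not tested. A bound sets the mean of the bright age against the dimmest signal that counts as well above background on the arrays of the other age. It holds for the mean, and a single sample can fall short of it. Probe ASMM9PARTA014677, at 0.54 and 0.53 at 3 months, was not well above background on any array at 6 months and was at least 53.6-fold lower there. Its means were 0.00 at 1 month, 0.65 at 9 months and -5.65 in WT. Probe ASMM9PARTA039168 was at least 26.6-fold and ASMM9PARTA030909 at least 23.4-fold lower at 6 months. Probes ASMM9PARTA025231, ASMM9PARTA025232 and ASMM9PARTA030969 were higher at 6 months, with bounds on the mean of 45.4-fold, 38.2-fold and 18.9-fold. With normexp the log2 differences of these 6 probes were 3.59, 3.33 and 2.82 for the rises and -3.47, -2.59 and -2.56 for the falls, all smaller than their bounds on the log2 scale. The offset of 50 in that setting makes any difference from a dim level smaller, so this comparison does not test the bounds.

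Those 3 rises rest on unequal samples. ASMM9PARTA025231 lay at -0.40 in the first and at 2.35 in the second sample of 6 months, ASMM9PARTA025232 at -0.47 and 1.92, and ASMM9PARTA030969 at -2.69 and 2.10. The last of these lost its call in 6 of 25 alternatives. ASMM9PARTA029144, the largest rise among coded probes detected on all 6 arrays, likewise lay at 0.13 and 4.15 against -3.07 and -3.05 at 3 months (difference 5.20, SE 1.04, limma adjusted p = 0.0163), and lost its call in 5 of 26 alternatives. Between the 2 samples of 6 months 158 features differed by over 3 on the log2 scale, against 68 at 3 months, 86 at 1 month and 41 in WT, while those that differed by over 1 numbered 3885 at 6 months and 3862 at 3 months. The median absolute difference was 0.206 at 6 months, against 0.152 at 3 months. Of 25 features that were over 3 apart at 6 months, under 0.5 apart at 3 months and well above background on all 6-month arrays, 23 were higher in the second, female-labelled sample and 6 were called. One of the 2 others, ASMM9PARTA039035, was at 4.67 in the first and at -4.28 in the second sample, against 4.32 and 4.22 at 3 months. Labelled sex and sample cannot be told apart here, since each age has 1 sample of each.

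Some probes named by cDNA records changed by over 1 on the log2 scale, while the changes of human-derived lincRNAs given here were smaller. AK139568_P1 rose from -1.87 and -1.93 to 0.81 and 0.63 (difference 2.62, SE 0.09, limma adjusted p = 4.46e-06), and AA915284_P1 rose by 2.06 (SE 0.34), but had 1.02 with normexp and was not called (limma adjusted p = 0.0535). AK039249_P1 fell from 0.73 and 0.83 to -0.66 and -0.84 (difference -1.52, SE 0.10), and BU563586_P1 fell by 1.61 (SE 0.25). The samples of 6 months were unequal in BU563586_P1, at -1.28 and -0.36, and in AA915284_P1, at -2.10 and -0.85. AK139568_P1 had means of -0.12 in WT, -2.45 at 1 month and -0.39 at 9 months, so 6 months was the highest of the 5 groups and 1 month the lowest. Of the human-derived lincRNAs, humanlincRNA0373 on the minus strand rose by 0.82 (SE 0.14), from -2.76 and -2.54 to -1.87 and -1.78, and humanlincRNA0789 on the plus strand fell by 0.49 (SE 0.10). The first was lost with normexp (0.41, limma adjusted p = 0.0988) and the second with the reference gene probes set level (-0.20, adjusted p = 0.275). Among other transcript identifiers AK084660 rose by 1.16 (SE 0.19; 0.59 with normexp), AK136647 fell by 1.43 (SE 0.14) and AK048889 fell by 0.91 (SE 0.11), from 1.19 and 1.22 to 0.34 and 0.26.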

How the data were processed

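The scanner files hold intensity per spot from Agilent Feature Extraction 10.7.1.1, per the submitters' processing notes; per the file headers the processed signal is background-subtracted and spatially detrended. Flags per spot (well above background, outlier, control) were read as deposited. The deposited value table equals the mean local background intensity on the 14 arrays with a scanner file (largest difference 0) and was not used. Log2 of the processed signal minus the array's 75th percentile was analysed. Control probes, negative probes, outlier spots of repeated probes and 134 non-uniform single-spot probes were left out, spots of 1 probe averaged, and probes well above background on at least 3 of 14 arrays kept, with the brightest probe where several shared a name. Near-identical arrays were averaged, and limma 3.58.1 (R 4.3.3; lmFit, eBayes, Benjamini-Hochberg) was fitted to all 11 samples with 1 mean per group. The number of arrays limits the precision. The fit was tested on simulated data with independent noise and no effect of position or sex, so that test does not bear on either.

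Named were every tested symbol on the lists, other called symbols whose ages did not overlap, the 2 largest rises and falls of each class of 100 or more features detected on all 6 arrays, and the 3 largest switches each way. Exon runs, features called on both strands, opposite strands and features with unlike samples were named after their values were seen. Members and lists were chosen with earlier results of these data known. Alternatives changed background correction, scaling, filters, averaging, scan setting, labelled sex, variance model and samples.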

Additional observations from a re-analysis of the deposited data

How the results depend on the processing

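The count of 6360 stayed within 1.5 times under quantile normalization, all 3 other filters on dim probes, 1 array of each near-identical pair, labelled sex as a covariate and eBayes with trend and robust settings (5493 to 7408). It was 3368 with normexp on the median signal (the files analysed here hold no mean signal column), 3801 with array medians subtracted, 12351 with reference gene probes set level, 14834 with the 14 arrays as separate samples, 87 with the 4 samples alone, 3867 without the 9-month arrays, 3701 with the arrays of the shared scan setting of 356 V alone, and 12670 with the scan setting as a term and the arrays of WT and 1 to 6 months not averaged. The fits with 87, 3867 and 3701 calls hold fewer samples. Those with 14834 and 12670 calls count near-identical arrays as separate samples, so repeats stand there as replicates. For the other counts the cause was not tested. Of the 6360 calls 284 changed sign with normexp and 15 with reference gene probes set level. Leaving out 1 sample gave 3326 to 5810. Within the 2 scan settings, 356 and 355 V, 6358 of the 6360 calls kept their sign. At each age the only 355 V array is the near-identical partner of a 356 V array, and both went into the samples that gave the calls. So this count is not an independent check on the scan setting. Ssty2 turned to -0.098 and Gm20831 to -0.17 with normexp, and Taf1a, not called otherwise, to 0.27 (limma adjusted p = 0.0356) with reference gene probes set level. No paired analysis was possible because the labels give every sample the same replicate number. Features not well above background at an age have only bounds there.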
